A study of Homo sapiens with 12 samples.

Results

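PAEP, MUC7, LILRB1, CORO2B, CGA, TESC, RIPOR2, A2M and HAPLN1 are genes best known from tissues other than the prostate, and they are described here across 12 RNA-seq libraries of the prostate cancer lines 22Rv1 and PC3. These 9 of the 58302 genes in the count table were selected on their 22Rv1 counts, which went from 0 or low in control cells to clearly higher values with ETV4, so their levels in 22Rv1 are given as a description, without a test. The choice stated no numeric threshold. PC3 libraries played no part in it, and the tests of the 9 genes were made there.

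Each line carried 1 of 3 lentiviral constructs in an MSCV-IRES-GFP vector: eGFP alone, wild-type ETV4 with eGFP (ETV4WT), or mutated ETV4 with eGFP (ETV4AAA). All cells, controls included, were thus infected and were sorted as eGFP-positive and DAPI-negative (live) cells 1 week after infection. The 6 groups are 22Rv1 eGFP, 22Rv1 ETV4WT, 22Rv1 ETV4AAA, PC3 eGFP, PC3 ETV4WT and PC3 ETV4AAA, with n = 2 libraries each. 22Rv1 is a line grown from a prostate cancer xenograft, and PC3 comes from a prostate cancer metastasis in bone. The sources used here do not give the residues changed in ETV4AAA, and the labels do not say whether the replicates of a group are separate cultures, so the p-values below measure only the spread between these libraries.

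ETV4 is an ETS transcription factor of the PEA3 subfamily, and ETS factors bind DNA around a GGAA core and often act next to AP-1 sites. ETV4 is normally turned over quickly by ubiquitination, and in a subset of prostate tumours it is overexpressed through gene fusions. The 9 genes encode secreted proteins (PAEP, MUC7, CGA, A2M and HAPLN1), a cell-surface receptor (LILRB1) and intracellular proteins (TESC, RIPOR2 and CORO2B).

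ETV4 itself had 31.2 and 24.9 CPM (read counts scaled to the TMM-adjusted library size) in the 22Rv1 eGFP libraries, 385.1 and 484.5 with ETV4WT, and 389.9 and 281.1 with ETV4AAA. Both constructs were therefore visible in every 22Rv1 library. In PC3, ETV4 had 116.4 and 125.7 CPM with eGFP, 214.6 and 111.6 with ETV4WT, and 222.6 and 109.4 with ETV4AAA. Replicate 2 of both construct groups thus lay below eGFP, and the PC3 groups are called by their labels here. The libraries held 43572713 to 51199207 counts in PC3 and 41698738 to 50226044 in 22Rv1, so that 1 count is worth 0.0186 to 0.0239 CPM. The squared differences between replicates of a group were 3.24 (PC3 eGFP) to 57.7 (PC3 ETV4AAA) times those of counting error, as chi-square per degree of freedom.

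The promoters of the 9 genes are shown first because all 9 were higher in the 22Rv1 libraries with ETV4AAA, a form of a factor with a known core sequence. RefSeq start sites on GRCh38.p14 were found for 7 of the 9 genes, and the start nearest to the 5′ end of the GENCODE 29 gene was used. The 250 bases before that start are printed 5′ to 3′ on the gene's strand for the 4 genes with 0 counts in both 22Rv1 eGFP libraries and for CGA. Capitals mark GGAA or its complement TTCC, the AP-1-like letters TGANTCA (N is any base) and the cyclic AMP response element TGACGTCA. The windows are chr9:135561506-135561755 on the + strand for PAEP, chr4:70430242-70430491 (+) for MUC7, chr19:54616879-54617128 (+) for LILRB1, chr15:68578743-68578992 (+) for CORO2B and chr6:87095107-87095356 (-) for CGA.
PAEP: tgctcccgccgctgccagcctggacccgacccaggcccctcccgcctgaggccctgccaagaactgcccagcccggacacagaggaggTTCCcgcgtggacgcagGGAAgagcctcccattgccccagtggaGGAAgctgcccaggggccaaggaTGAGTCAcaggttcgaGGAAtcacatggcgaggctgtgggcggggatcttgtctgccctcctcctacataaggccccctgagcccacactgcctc
MUC7: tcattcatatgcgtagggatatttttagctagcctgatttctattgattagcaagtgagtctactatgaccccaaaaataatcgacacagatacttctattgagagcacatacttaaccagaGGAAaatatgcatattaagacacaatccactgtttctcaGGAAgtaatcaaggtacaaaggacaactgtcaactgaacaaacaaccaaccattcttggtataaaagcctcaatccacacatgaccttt
LILRB1: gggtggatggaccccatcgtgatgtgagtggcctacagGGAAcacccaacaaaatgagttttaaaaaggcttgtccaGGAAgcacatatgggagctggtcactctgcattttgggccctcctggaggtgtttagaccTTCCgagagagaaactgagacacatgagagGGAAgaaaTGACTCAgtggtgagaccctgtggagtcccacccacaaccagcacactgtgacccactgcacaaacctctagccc
CORO2B: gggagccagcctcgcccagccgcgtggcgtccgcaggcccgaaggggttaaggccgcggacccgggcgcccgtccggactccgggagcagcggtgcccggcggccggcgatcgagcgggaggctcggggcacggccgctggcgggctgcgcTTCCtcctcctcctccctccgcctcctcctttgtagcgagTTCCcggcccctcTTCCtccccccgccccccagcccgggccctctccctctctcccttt
CGA: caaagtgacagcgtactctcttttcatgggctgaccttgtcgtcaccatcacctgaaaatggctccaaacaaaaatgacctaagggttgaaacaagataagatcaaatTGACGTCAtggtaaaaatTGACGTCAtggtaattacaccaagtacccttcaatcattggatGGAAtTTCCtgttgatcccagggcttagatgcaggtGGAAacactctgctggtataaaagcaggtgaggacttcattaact
All 7 windows hold 2 to 4 matches to GGAA on either strand, and 92.7% of 34943 promoter windows of this length hold at least 1. The longer letters GGAAGT, which contain GGAA, occur in 1 of the 7, starting 89 bases before the MUC7 start, against 19.5% of all windows. CCGGAA, which also contains GGAA, occurs in 0 of the 7 and in 14.5% of all windows. TGANTCA occurs in 3 of the 7, at 95 bases before the PAEP start, 75 before the LILRB1 start and 229 before the RIPOR2 start, against 6.6% of all windows. The base at N is G in PAEP, C in LILRB1 and T in RIPOR2. TGACGTCA occurs only in the CGA window among these 7, at 142 and 124 bases before the start, against 1.6% of all windows. These letters were chosen after the sequences were seen, and a match is a description of the sequence, not a binding site. The CGA window lies inside the longer GENCODE gene, whose 5′ end is 300 bases upstream of the RefSeq start, and so does the HAPLN1 window, where that distance is 758 bases. The last bases of the CORO2B window lie inside the GENCODE gene too.

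PAEP encodes glycodelin, a lipocalin that the glands of the secretory endometrium release (GRCh38 chromosome 9, 135561756 to 135566955, + strand). It had 0 counts in both eGFP libraries and in both ETV4WT libraries of 22Rv1, and 1474 and 1475 counts in the ETV4AAA libraries. On the CPM scale the ETV4AAA libraries were at 32.7 and 35.0. Between them, 0 counts in the pair of eGFP libraries allow a level of up to 0.0308 CPM (3 counts over both), so PAEP was at least 1097-fold higher with ETV4AAA than with eGFP, and by the same floor at least 1070-fold higher than with ETV4WT. Intervals and floors cover counting error only, since reads were amplified without molecular identifiers. In bulk RNA more cells that express a gene and more RNA per cell cannot be told apart.

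MUC7 encodes the small secreted mucin of saliva (chromosome 4, 70430492 to 70482997, + strand). In 22Rv1 it had 0 and 0 counts with eGFP, 13 and 28 with ETV4WT, and 935 and 820 with ETV4AAA. The 3 groups did not overlap. MUC7 was at least 14.0-fold higher with ETV4WT and at least 652.8-fold higher with ETV4AAA than with eGFP, and ETV4AAA lay above ETV4WT by a log2 difference of 5.54 ± 0.31 (SE, edgeR fit, n = 2 libraries per group).

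LILRB1, an inhibitory receptor for MHC class I on leukocytes (chromosome 19, 54617158 to 54637528, + strand), was not detected in the 4 22Rv1 libraries with eGFP or ETV4WT. The ETV4AAA libraries held 494 and 423 counts (10.96 and 10.04 CPM), which is at least 341.1-fold above eGFP and at least 332.7-fold above ETV4WT. Its antisense gene LILRB1-AS1 had 0 counts in every group. Genes of the leukocyte receptor cluster are similar in sequence, so some reads may be assigned to either copy.

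CORO2B encodes a coronin, an actin-binding protein best known from neurons and podocytes (chromosome 15, 68578969 to 68727806, + strand). It followed the same pattern as LILRB1, with 0 counts in all eGFP and ETV4WT libraries of 22Rv1 and 334 and 306 counts with ETV4AAA. Those are 7.41 and 7.26 CPM, at least 238.1-fold above eGFP and at least 232.2-fold above ETV4WT.

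HAPLN1 encodes the cartilage link protein, which ties aggrecan to hyaluronan (chromosome 5, 83637805 to 83721613, - strand). In 22Rv1 it had 0 and 1 counts with eGFP, 16 and 11 with ETV4WT, and 1944 and 1947 with ETV4AAA. The ratio of pooled counts to eGFP was 27.7 (95% interval 4.56 to 1133) for ETV4WT and 4342 (778.8 to 171500) for ETV4AAA, wide because the eGFP group holds a single count. ETV4AAA exceeded ETV4WT by 7.28 ± 0.23 on the log2 scale, an SE that may be too small at these ETV4WT counts.

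**Figure D1:**
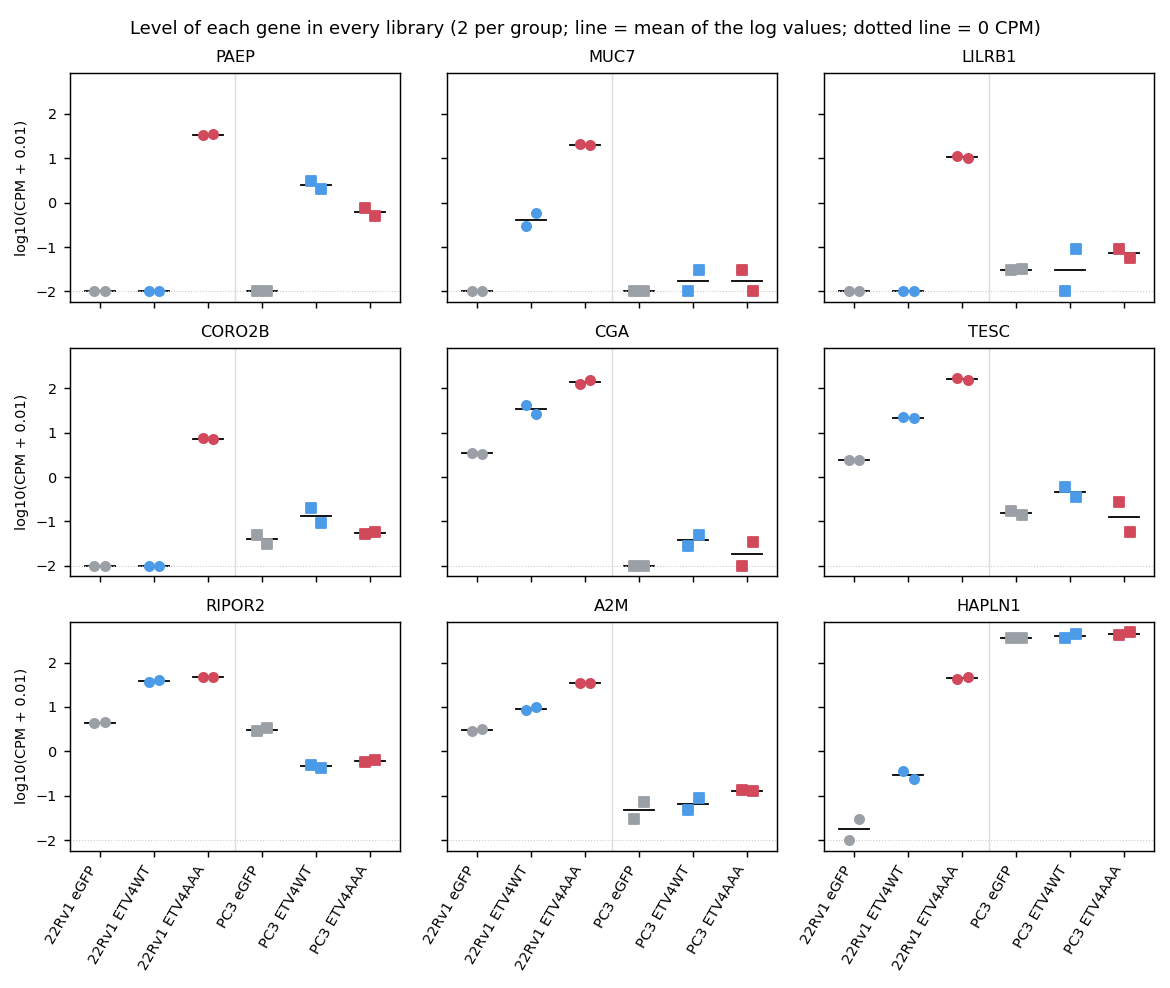
Level of the 9 genes in each of the 12 libraries, as log10 of CPM plus 0.01 (circles 22Rv1, squares PC3, grey eGFP, blue ETV4WT, red ETV4AAA; lines are means of the 2 log values and the dotted line is 0 CPM). In 22Rv1 the red points are the highest in each panel apart from HAPLN1, which lies higher in PC3, and PAEP, LILRB1 and CORO2B sit at 0 with both eGFP and ETV4WT.

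The other 4 genes were not off in 22Rv1 control cells. CGA, the alpha subunit shared by chorionic gonadotropin and the pituitary glycoprotein hormones (chromosome 6, 87085498 to 87095406, - strand), had 3.51 and 3.27 CPM with eGFP, 42.1 and 26.7 with ETV4WT, and 123.6 and 155.7 with ETV4AAA. The groups did not overlap. The log2 difference from eGFP was 3.34 ± 0.25 for ETV4WT and 5.36 ± 0.27 for ETV4AAA, and ETV4AAA exceeded ETV4WT by 2.02 ± 0.23 (SE). The ETV4WT libraries of CGA were further apart, in proportion, than those of TESC or RIPOR2.

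TESC, or tescalcin, is a calcium-binding protein (chromosome 12, 117038923 to 117099479, - strand). Its levels in 22Rv1 were 2.38 and 2.35 CPM with eGFP, 22.6 and 20.8 with ETV4WT, and 167.9 and 149.8 with ETV4AAA. Of the 9 genes it had the highest mean in ETV4AAA on the CPM scale, 158.8 ± 12.8 (SD, n = 2), and per kilobase of exon, 82.5 ± 6.66 CPM per kb. CGA was next per kilobase with 61.1 ± 9.92 CPM per kb (SD), followed by PAEP with 23.3 ± 1.12. The log2 difference of TESC from eGFP was 3.20 ± 0.26 for ETV4WT and 6.07 ± 0.29 for ETV4AAA.

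A2M, the broad protease inhibitor alpha-2-macroglobulin of plasma (chromosome 12, 9067664 to 9116229, - strand), had 2.93 and 3.15 CPM with eGFP, 8.49 and 10.0 with ETV4WT, and 34.6 and 34.5 with ETV4AAA. Its log2 difference from eGFP was 1.60 ± 0.19 with ETV4WT and 3.50 ± 0.19 with ETV4AAA. The antisense gene A2M-AS1 overlaps A2M, and its counts over both libraries were 176, 186 and 110 in the eGFP, ETV4WT and ETV4AAA groups, so it was not higher with ETV4AAA as A2M was. The sources used here do not say whether the counting used strand.

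RIPOR2 encodes an inhibitor of the small GTPase RhoA that is known from muscle, hearing and lymphocytes (chromosome 6, 24804281 to 25042170, - strand). It had 4.35 and 4.51 CPM with eGFP, 37.5 and 39.8 with ETV4WT, and 46.1 and 47.4 with ETV4AAA. The log2 difference from eGFP was 3.12 ± 0.16 for ETV4WT and 3.40 ± 0.16 for ETV4AAA. ETV4AAA exceeded ETV4WT by 0.28 ± 0.14 (SE), against 1.90 ± 0.18 for A2M, 2.02 for CGA and 2.87 ± 0.25 for TESC. The pseudogene PPIAP29 inside RIPOR2 had 455, 565 and 412 counts in the same 3 groups.

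Over the 9 genes, both libraries of the construct lay above both eGFP libraries for 6 genes with ETV4WT and for 9 with ETV4AAA, and both ETV4AAA libraries lay above both ETV4WT libraries for 9. Over all 23238 genes tested, that held for 22.6%, 32.5% and 29.4%. The rule used these libraries, so nothing is read from the counts. By size of the fitted log2 difference between ETV4AAA and eGFP, PAEP was the 5th of 23238 genes, MUC7 the 6th, LILRB1 the 11th, HAPLN1 the 13th and CORO2B the 14th, while TESC was at rank 308, CGA at 410, A2M at 902 and RIPOR2 at 932. The fitted values of genes at 0 depend on the prior count, so these ranks describe an order only.

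To place the genes among others that behave alike, all genes under 0.5 CPM in both eGFP libraries and at least 5 CPM in both libraries of a construct were counted. In 22Rv1 there were 102 such genes with ETV4AAA, 97 of them protein-coding, and 1 with ETV4WT, SPARC, which is named because it was the single one, after its value was seen. PAEP, MUC7, LILRB1, CORO2B and HAPLN1 were among the 102, at ranks 13, 30, 58, 85 and 12 by mean level. PC3 had 3 such genes with each construct and 0 of them was shared with the 102. With limits of 0.2 and 2 CPM the numbers were 140 for 22Rv1 ETV4AAA, 1 for 22Rv1 ETV4WT, 7 for PC3 ETV4WT and 4 for PC3 ETV4AAA, and PAEP was then among the 7.

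**Figure D2:**
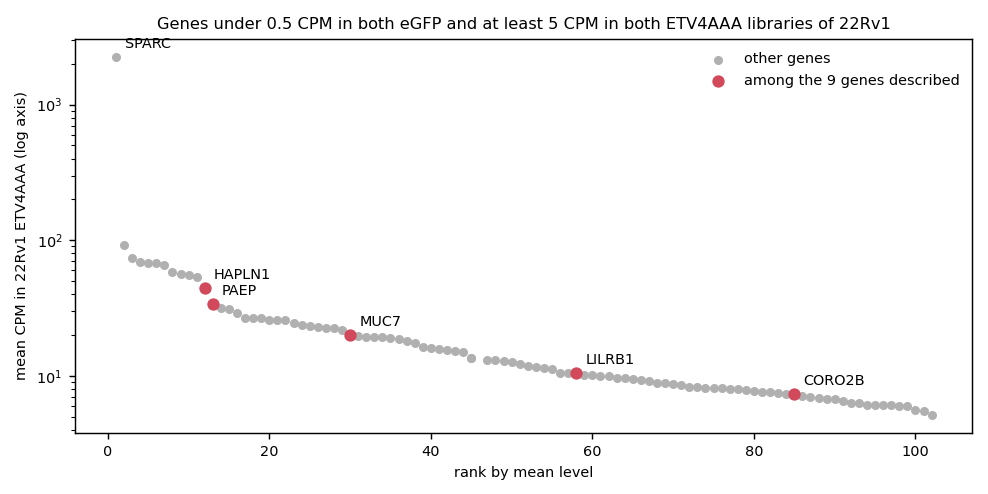
Mean CPM (log axis) against rank for the 102 genes under 0.5 CPM in both eGFP libraries and at least 5 CPM in both ETV4AAA libraries of 22Rv1. HAPLN1, PAEP, MUC7, LILRB1 and CORO2B (red) lie at 44.7, 33.9, 20.1, 10.5 and 7.34 CPM, far below SPARC at 2228 CPM.

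In PC3, which the choice of genes did not use, PAEP was the one gene of the 9 that rose from 0. It had 0 and 0 counts with eGFP, 166 and 101 with ETV4WT, and 37 and 20 with ETV4AAA, or 3.09 and 2.03 CPM followed by 0.760 and 0.478 CPM. The 3 groups did not overlap. PAEP was at least 82.7-fold higher with ETV4WT than with eGFP (adjusted p = 2.1e-05, edgeR quasi-likelihood test, Benjamini-Hochberg over 23238 genes) and at least 20.2-fold higher with ETV4AAA (adjusted p = 0.00229). With 0 counts in PC3 eGFP, PAEP could not be called lower than eGFP. It passed the low-count filter only through groups where it was high, so its p-values against eGFP are a description. Between the constructs PAEP was lower with ETV4AAA, by a log2 difference of -2.03 ± 0.30 (adjusted p = 0.00254). In 22Rv1 the order was the other way, with 0 counts for ETV4WT. Within each construct the PC3 library with less ETV4, replicate 2, also had less PAEP. In these replicate 2 libraries ETV4 (111.6 and 109.4 CPM) lay below eGFP (116.4 and 125.7), while PAEP had 101 and 20 counts. A relation between the levels of ETV4 and PAEP was not tested. Without the 2 replicate 2 libraries, the log2 difference between the constructs in PC3 was -2.11 (adjusted p = 0.00161).

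RIPOR2 fell in PC3, where it had 2.82 and 3.42 CPM with eGFP, 0.483 and 0.422 with ETV4WT, and 0.575 and 0.622 with ETV4AAA. The log2 difference from eGFP was -2.77 ± 0.19 for ETV4WT (adjusted p = 2.42e-06, edgeR) and -2.38 ± 0.18 for ETV4AAA (adjusted p = 4.57e-05). Both construct groups lay below eGFP in every library, whereas in 22Rv1 all 4 construct libraries lay above it. The constructs differed by 0.40 ± 0.22 in PC3 (adjusted p = 0.429).

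TESC had 8 and 6 counts with eGFP in PC3, 32 and 17 with ETV4WT, and 13 and 2 with ETV4AAA. It rose with ETV4WT by 1.68 ± 0.47 on the log2 scale (adjusted p = 0.0233, edgeR), at levels under 0.6 CPM in every library. That call was lost without eGFP replicate 1 (adjusted p = 0.0919), without eGFP replicate 2 (0.146), without ETV4WT replicate 1 (0.13) and when PC3 was fitted alone (0.0972). With ETV4AAA the libraries overlapped those of eGFP, with a log2 difference of 0.17 ± 0.59 (adjusted p = 0.924). Against ETV4WT, ETV4AAA was at -1.5 ± 0.47 (adjusted p = 0.061, edgeR). That adjusted p ran from 0.00161 to 0.291 over the alternatives, and was 0.00579 without ETV4AAA replicate 1 and 0.0397 without ETV4WT replicate 2.

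HAPLN1 was high in every PC3 library. Its levels were 360.3 and 366.1 CPM with eGFP, 356.7 and 436.8 with ETV4WT, and 413.7 and 476.7 with ETV4AAA. The log2 difference from eGFP was 0.13 ± 0.15 for ETV4WT (adjusted p = 0.584, edgeR) and 0.29 ± 0.15 for ETV4AAA (adjusted p = 0.353). The 22Rv1 ETV4AAA libraries reached 11.9% and 12.7% of the mean PC3 eGFP level. For comparison, 31 other genes had at least 50 CPM in every PC3 library and under 0.1 CPM in 22Rv1 eGFP. Their median level in the same 22Rv1 ETV4AAA libraries was 0.0975% and 0.0744% of PC3 eGFP, and 25 and 24 of the 31 stayed under 1%, while 2 of the 31 exceeded 5% in each library.

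The remaining 5 genes stayed near 0 in PC3. CORO2B had 2 and 1 counts with eGFP, 10 and 4 with ETV4WT and 2 and 2 with ETV4AAA, and the pooled ratio of ETV4WT to eGFP was 4.34 (95% interval 1.21 to 23.5). LILRB1 had 1, 1, 0, 4, 4 and 2 counts in the 6 PC3 libraries in the same order of groups, A2M 1, 3, 2, 4, 6 and 5, MUC7 0, 0, 0, 1, 1 and 0, and CGA 0, 0, 1, 2, 0 and 1. No p is given for these 5 genes, and at these counts a small change was not detectable.

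Taking the 9 genes in PC3, 2 rose and 1 fell with ETV4WT, 1 rose and 1 fell with ETV4AAA, and 1 was lower and 0 higher with ETV4AAA than with ETV4WT. Of all 23238 genes, 12.7% rose and 10.7% fell with ETV4WT, 2.45% rose and 1.24% fell with ETV4AAA, and 3.65% were higher and 7.32% lower with ETV4AAA than with ETV4WT. All 9 genes passed the filter on low counts. MUC7, LILRB1, CORO2B, CGA and A2M, with at most 10 counts in any PC3 library, passed it through 22Rv1, where they were high. PAEP, at 0 counts in PC3 eGFP, passed it only through groups where it was high and could only rise against eGFP. The counts over the 9 genes are therefore a description.

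**Figure D3:**
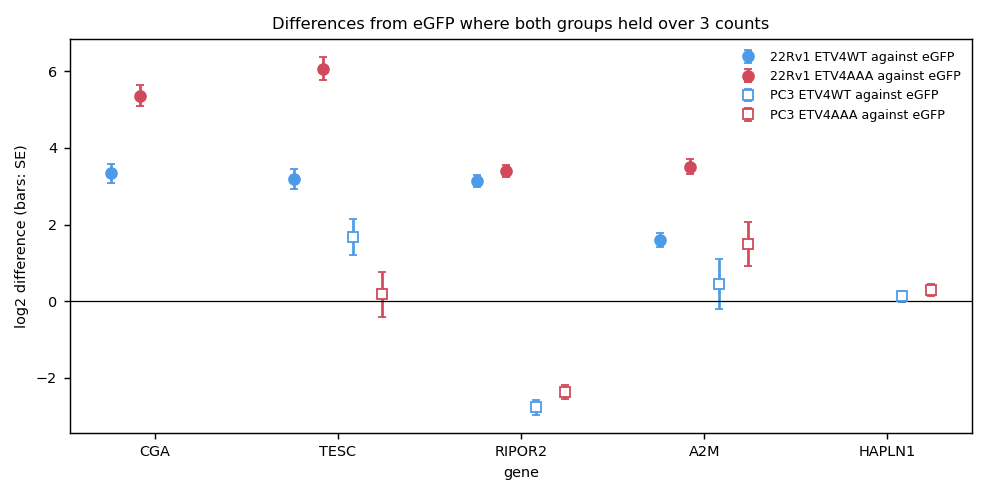
Log2 difference from eGFP (fitted, bars are SE) for the genes with more than 3 counts in both groups, in 22Rv1 (filled circles) and PC3 (open squares), with ETV4WT in blue and ETV4AAA in red. RIPOR2 lies near 3 in 22Rv1 and between -2.77 and -2.38 in PC3, and HAPLN1 lies near 0 in PC3.

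Relatives of the 9 genes were then followed in 22Rv1, from lists of 99 family members of which 57 were tested. With ETV4WT, 4 rose and 2 fell, or 10.5% against 1.5% of all genes, and the 6 called became 3 without either eGFP replicate or without ETV4WT replicate 1. With ETV4AAA, 20 rose and 10 fell, or 52.6% against 31.8% of all genes, with a median log2 difference of 0.23 against -0.00117 over all genes. The count describes the list and sets it apart from no other list. Here and in the lists below, some genes near 0 with eGFP passed the low-count filter through the libraries where they were high. Such genes could hardly be called as falling in 22Rv1, so their p-values and the counts of rising genes are a description.

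Of the relatives of MUC7, 7 of 11 tested mucins rose with ETV4AAA and 0 fell, where 31.8% of all genes were called in either direction. MUC2, the gel-forming mucin of the intestine, had 2 and 2 counts with eGFP, 4 and 3 with ETV4WT, and 1403 and 955 with ETV4AAA, a log2 difference from eGFP of 9.26 ± 0.44 (adjusted p = 2.19e-08, edgeR). MUC5B, the gel-forming mucin of airway and salivary glands, had 4 and 2, 7 and 17, and 1476 and 805 counts (8.66 ± 0.78, adjusted p = 4.99e-06). MUC13, a transmembrane mucin, was already at 50.9 and 59.6 CPM with eGFP and reached 581.1 and 634.6 CPM with ETV4AAA (3.46 ± 0.13, adjusted p = 4.24e-09). MUC2 and MUC5B thus shared the near-absence in eGFP that MUC7 showed, and MUC13 did not.

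PAEP's family, the lipocalins, was split, with 2 up and 2 down of 9 tested with ETV4AAA. APOD, a lipocalin that carries lipids, had 2.48 and 2.88 CPM with eGFP, 13.4 and 12.1 with ETV4WT, and 107.1 and 124.6 with ETV4AAA. It rose with both constructs, by 2.25 ± 0.15 (adjusted p = 1.46e-05) and 5.43 ± 0.17 (adjusted p = 1.02e-09) by edgeR. Among the leukocyte immunoglobulin-like receptors, 2 of 4 tested rose with ETV4AAA. LILRA2, an activating receptor next to LILRB1, had 0 and 0 counts with eGFP, 0 and 1 with ETV4WT, and 175 and 152 with ETV4AAA, which is at least 121.6-fold above eGFP (adjusted p = 8.82e-06). LILRA2 passed the low-count filter only through ETV4AAA. As for LILRB1, some of its reads may be assigned to a similar gene of the cluster.

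The relatives of HAPLN1 are the link proteins, the hyaluronan-binding proteoglycans, the hyaluronan synthases and the receptor CD44, and 4 of 8 tested rose and 1 fell with ETV4AAA. HAS3, which makes hyaluronan, had 2.85 and 2.57 CPM with eGFP, 3.57 and 3.19 with ETV4WT, and 148.8 and 126.0 with ETV4AAA (5.66 ± 0.16, adjusted p = 5.17e-10). CD44 rose from 120.0 and 128.7 CPM with eGFP to 254.9 and 249.3 with ETV4WT (1.02 ± 0.11, adjusted p = 0.000564) and 430.5 and 426.9 with ETV4AAA (1.79 ± 0.12, adjusted p = 2.64e-07). VCAN, the proteoglycan versican, fell from a mean of 3.60 to 1.07 CPM with ETV4AAA (-1.75 ± 0.20, adjusted p = 3.93e-05).

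Of the coronins, relatives of CORO2B, 0 of 6 tested rose and 3 fell with ETV4AAA. CORO2A fell by a log2 difference of -0.93 ± 0.18 (adjusted p = 0.00176, edgeR), and the other two did not hold over all libraries. The call of CORO1A was lost without ETV4AAA replicate 1, ETV4AAA replicate 2 or eGFP replicate 1 (adjusted p of 0.102, 0.0542 and 0.121, edgeR), and that of CORO1C without ETV4AAA replicate 1 (0.0527). Of CGA's relatives, 3 of 14 hormone subunits and receptors had enough counts to be tested. CGB2, a chorionic gonadotropin beta gene, had 4.35 and 3.99 CPM with eGFP and 8.14 and 6.93 with ETV4AAA (0.85 ± 0.21, adjusted p = 0.011), a call lost without ETV4AAA replicate 1 (0.0882) or without either eGFP replicate (0.0521 and 0.0818). Reads of the CGB genes, which are near-identical copies, may be assigned to any of them. Of the A2M family with complement and the receptor LRP1, 3 of 7 rose and 2 fell with ETV4AAA. C3, the central complement protein, rose from a mean of 0.370 to 2.47 CPM (2.73 ± 0.40, adjusted p = 0.000245), and C5 fell from 42.3 to 11.6 CPM (-1.86 ± 0.15, adjusted p = 1.91e-06). For RIPOR2, 1 of 5 relatives rose and 1 fell, and RIPOR3 rose from a mean of 0.277 to 1.10 CPM (1.98 ± 0.34, adjusted p = 9e-04). For TESC, 0 of 4 relatives rose and 1 fell.

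**Figure D4:**
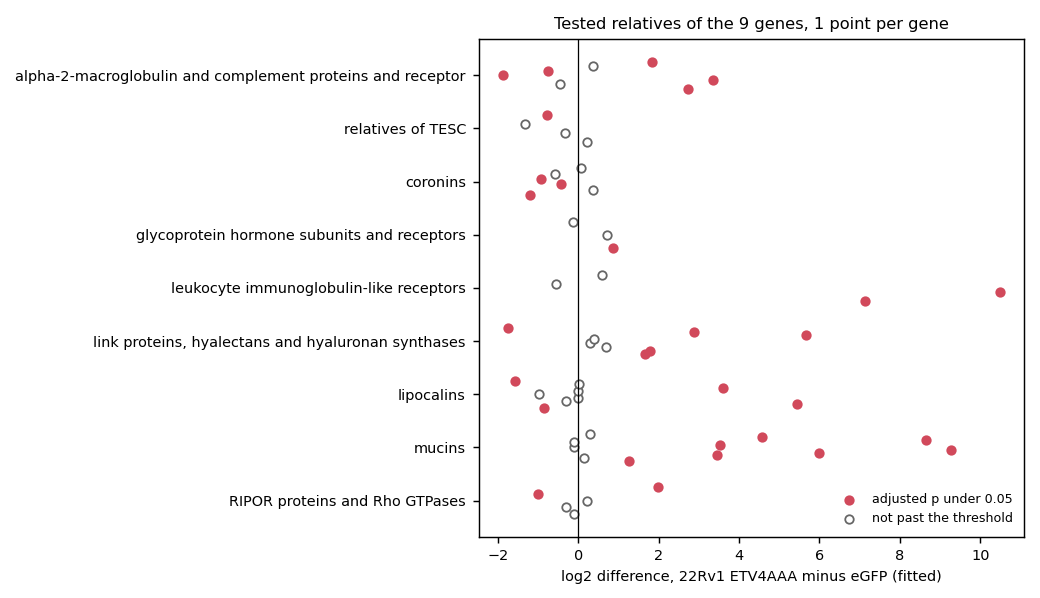
Fitted log2 difference between ETV4AAA and eGFP in 22Rv1 for the 57 tested relatives, 1 point per gene, by family, with red points past an adjusted p of 0.05. Mucins and link proteins have called points mostly to the right of 0 and coronins to the left, and the fitted values of genes at 0 in eGFP, such as LILRA2, depend on the prior count.

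The 3 nearest protein-coding genes on each side of every gene were taken as neighbours, and 34 of 54 were tested. With ETV4WT 0 rose and 1 fell, or 2.94% of those tested against 1.5% of all genes, with 0 called without either eGFP replicate or ETV4WT replicate 1 and 2 called without ETV4WT replicate 2. With ETV4AAA 10 rose and 9 fell, or 55.9% against 31.8% of all genes, with a median log2 difference of -0.04. The number called with ETV4AAA dropped to 12 without ETV4AAA replicate 1 or without eGFP replicate 2. LILRA2 lies 26.9 kb from LILRB1 and OBP2A, an odorant-binding lipocalin, lies 11.8 kb from PAEP. OBP2A had 4 and 1 counts with eGFP, 2 and 2 with ETV4WT, and 36 and 21 with ETV4AAA, and rose with ETV4AAA by 3.60 ± 0.61 (adjusted p = 0.000967, edgeR). Like LILRA2, OBP2A passed the low-count filter only through 22Rv1 ETV4AAA. In PC3 OBP2A had a mean of 0 CPM with eGFP, 0.114 with ETV4WT (adjusted p = 0.023, edgeR) and 0.0342 with ETV4AAA (0.354). That call with ETV4WT rested on few counts and was lost when eGFP replicate 1 was left out (0.108), likewise eGFP replicate 2 (0.111) and ETV4WT replicate 1 (0.0938). EDIL3, a secreted integrin ligand 219 kb from HAPLN1, had 5.13 and 5.29 CPM with eGFP, 4.77 and 4.39 with ETV4WT, and 31.8 and 32.7 with ETV4AAA (2.63 ± 0.15, adjusted p = 1.04e-07, edgeR). VCAN, 55.5 kb away on the other side of HAPLN1, fell. HRK, a pro-apoptotic BCL2 family gene 157 kb from TESC, rose with ETV4AAA by 3.01 ± 0.21 (adjusted p = 4.5e-07), while FBXW8, only 7.78 kb from TESC, was at -0.28 (adjusted p = 0.153). SCGN, a calcium-binding protein gene 610 kb from RIPOR2, rose by 2.58 ± 0.17 (adjusted p = 3.67e-07). Of the 6 neighbours of MUC7, 0 had enough counts to be tested, and of the 6 neighbours of CORO2B 0 rose and 2 fell with ETV4AAA.

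**Figure D5:**
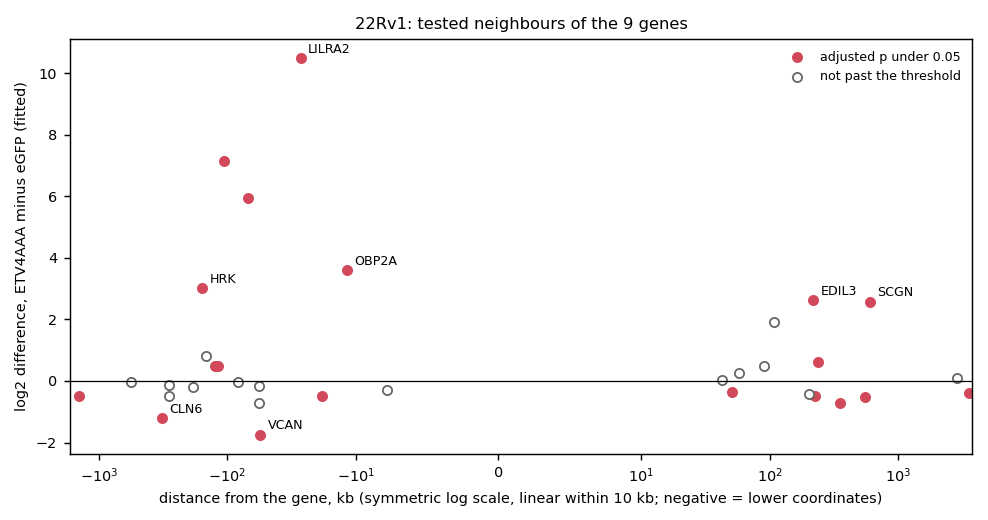
Fitted log2 difference between ETV4AAA and eGFP in 22Rv1 against distance in kb (symmetric log scale, negative toward lower coordinates) for the 34 tested neighbours of the 9 genes, with red points past an adjusted p of 0.05. LILRA2 at 26.9 kb from LILRB1 stands highest, and neighbours above and below 0 occur on both sides. Fitted values of genes at 0 in eGFP, LILRA2 among them, depend on the prior count.

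Genes of the tissues in which the 9 genes are best known were listed too, and 58 of 127 were tested. With ETV4WT 4 rose and 2 fell (10.3%, against 1.5% of all genes), and with ETV4AAA 21 rose and 9 fell (51.7%, against 31.8% of all genes), with a median log2 difference of 0.56, or 0.16 with genes at 0 counts set to the floor. Cartilage genes, the setting of HAPLN1, had 8 of 12 up and 1 down with ETV4AAA. COL2A1, the collagen of cartilage, had 1.42 and 1.22 CPM with eGFP, 10.8 and 14.0 with ETV4WT, and 483.9 and 337.8 with ETV4AAA, a log2 difference of 3.23 ± 0.26 (adjusted p = 5.18e-05) and 8.28 ± 0.30 (adjusted p = 3.47e-09) by edgeR. SOX9, a transcription factor of chondrocytes and of many epithelia, had 34.03 and 30.7, 65.3 and 79.5, and 416.5 and 335.1 CPM, and its mean rose by 3.54 ± 0.15 with ETV4AAA (adjusted p = 9.63e-09). COL9A2 rose with ETV4AAA by 4.75 ± 0.27 (adjusted p = 9.13e-08). The summed level of the 17 cartilage genes was 57.3 to 65.0 CPM with eGFP, 111 to 128.6 with ETV4WT and 786.2 to 1060 with ETV4AAA. Most of the ETV4AAA sum was COL2A1 and SOX9, with means of 410.9 and 375.8 CPM. ACAN, the aggrecan that HAPLN1 binds, had a mean of 0.172 CPM with ETV4AAA, and COL11A1 was at 0.

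Endometrial gland genes, the setting of PAEP, had 5 of 9 up and 2 down with ETV4AAA, and GPX3, a secreted glutathione peroxidase, rose from 2.15 and 1.63 to 11.1 and 11.8 CPM (2.59 ± 0.18, adjusted p = 6.07e-07). HOXA10, 1 of the 2 that fell, went from a mean of 11.96 CPM with eGFP to 4.32 with ETV4AAA (-1.47 ± 0.17, adjusted p = 4.72e-05, edgeR). PGR, the progesterone receptor, had a mean of 0.127 CPM with ETV4AAA, and DEFB1 was at 0 counts there. Of 19 salivary gland genes, the setting of MUC7, 4 were tested and 2 of these were up, MUC5B among them. SMR3B and STATH had 19 and 10 counts over both ETV4AAA libraries. Others did not rise with ETV4AAA: PRB3 had a mean of 1.93 CPM with eGFP and 1.41 with ETV4AAA, PRH1 had 0.473 and 0.360, and SMR3A and PRB4 were at 0 counts with ETV4AAA. SMR3B lies 40.2 kb from MUC7 and had 0 counts with eGFP.

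Immune cell genes, the setting of LILRB1, had 1 of 11 up and 2 down with ETV4AAA. The summed level of the 23 listed genes was 30.0 to 32.6 CPM with eGFP and 27.4 to 30.0 with ETV4AAA. PTPRC, the common leukocyte antigen, had a mean of 0.0205 CPM with eGFP and 0.0119 with ETV4AAA, and CD3D, CD2, MS4A1 and TYROBP had 0 counts in both groups. Pituitary genes, a setting of CGA, had 0 of 3 up and 0 down, with a summed level of 11.2 to 14.1 CPM for eGFP and 9.75 to 11.6 CPM for ETV4AAA, and GH1 was at 0. PRL and POMC, which encode prolactin and the precursor of corticotropin, had 0 counts with eGFP and too few to be tested with ETV4AAA (4 and 10 for PRL, 5 and 6 for POMC). Trophoblast genes, the other setting of CGA, had 3 of 8 up and 2 down, and CGB8, CSH1, CSH2, GH2 and PSG5 were at 0. Liver and endothelial genes, the setting of A2M, had 2 of 11 up and 2 down with ETV4AAA. The genes that rose were both endothelial and had 0 counts with eGFP and with ETV4WT, so in 22Rv1 neither could be called lower than eGFP. KDR, a receptor for VEGF, had 199 and 203 counts with ETV4AAA, at least 149.5-fold above eGFP (adjusted p = 5.37e-07, edgeR). PECAM1, an adhesion molecule of endothelium, had 30 and 30 counts, at least 22.3-fold above eGFP (adjusted p = 5.37e-06). ALB, the albumin of liver, fell from a mean of 105.9 CPM with eGFP to 24.8 with ETV4WT (-2.09 ± 0.23, adjusted p = 0.000593) and 8.02 with ETV4AAA (-3.72 ± 0.25, adjusted p = 3.98e-07), while A2M was higher.

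Markers of the lines themselves were measured beside these values. The 10 luminal markers summed to 3372 to 3582 CPM in 22Rv1 eGFP, 3824 to 3908 in ETV4WT and 2943 to 3243 in ETV4AAA. With ETV4AAA, 1 of 10 was up and 5 were down. The same list summed to 1021 to 1091 CPM in PC3 eGFP, so its level was not confined to 22Rv1. The 10 genes listed for PC3 summed to 140.7 to 149.4, 270.2 to 274.8 and 730.3 to 738.4 CPM in 22Rv1 eGFP, ETV4WT and ETV4AAA, against 1167 to 1739 CPM in PC3. In 22Rv1 ETV4AAA most of that sum was CD44 and TGFBI, with means of 428.7 and 266.4 CPM. TGFBI had 0.0316 CPM in PC3 eGFP. VIM had 12.1 CPM in 22Rv1 ETV4AAA against 477 in PC3 eGFP, AXL 0.023 against 10.5, and LCN2 0. Their part in the levels of the 9 genes was not tested.

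The genes whose pattern over the 12 libraries was most like each of the 9 were found by Pearson's r of log2(CPM + 0.5) among 13919 protein-coding genes. The 12 libraries fall into 6 groups of 2 libraries and 2 lines, so a high r describes a shared group pattern. FAM3D (0.995) and HECW2 (0.988) were nearest to PAEP. FAM3D had 4.13 CPM in 22Rv1 ETV4AAA, 0.964 in PC3 ETV4WT and 0.446 in PC3 ETV4AAA. HECW2, unlike PAEP, was detected in PC3 eGFP, at 0.717 CPM, against 2.82 with ETV4WT and 1.78 with ETV4AAA there. APLNR (0.999) and SV2C (0.999) were nearest to MUC7. CAMK1G and ITIH5 (each 0.999) were nearest to LILRB1, and ITIH5 (0.998) and CRISP2 (0.997) to CORO2B. CHODL and DAPL1 (each 0.996) were nearest to CGA, PGC (0.996) and APOD (0.995) to TESC, and NCMAP and CEACAM6 (each 0.997) to A2M. TBXAS1 and TGFA (each 0.998) were nearest to HAPLN1 and, like it, were higher in PC3. RIPOR2 had the loosest match, TBL2 with 0.978. Among the 9 genes themselves, r was 0.996 between LILRB1 and CORO2B and 0.992 between CGA and A2M, and HAPLN1, which was high in PC3, had r between -0.6 and 0.3 with the other 8.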

How the data were processed

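Polyadenylated RNA was sequenced in 12 libraries. Per the submitters' processing notes, read quality was assessed with FastQC 0.11.9, and STAR 2.5.3a was the aligner for GRCh38. How reads were counted, with which strand setting and annotation, is not stated in the sources used here. The authors deposited raw counts for 58302 genes. Symbols and positions came from GENCODE 29, which holds 99.55% of the gene IDs, and promoter sequences from RefSeq (GRCh38.p14).

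Counts were filtered with filterByExpr (23238 genes kept), scaled by TMM and fitted over 6 groups with edgeR 4.0.16 (quasi-likelihood test) in R 4.3.3. The fit had 6 residual degrees of freedom and a biological coefficient of variation of 0.149. The SE of a log2 difference was derived from this fit, as its absolute value divided by the square root of the quasi-likelihood F statistic. A call required an adjusted p under 0.05 (Benjamini-Hochberg over the 23238 genes). A group at 0 counts was given a floor of 3 counts over its libraries, and 1 to 3 counts a ratio with a 95% interval. On simulated counts for PC3 ETV4WT against eGFP (21776 genes), 98% of 4-fold and 61% of 2-fold changes were recovered. These changes were placed only in genes above a minimum mean count, and all genes and groups were given the same dispersion. The shares therefore do not apply to genes at a few counts in PC3 or to the wider spread of some PC3 replicates.

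The 9 genes and all lists were chosen with earlier results of these data known. From each list, called genes that reached an average of 1 CPM in some group could be named, up to 4 by adjusted p, and for each of the 9 genes the 2 with the highest correlation. Genes named outside this rule (OBP2A, FBXW8, SPARC, PRB3, markers at or near 0 and markers of the lines) were chosen after their values were seen. Alternatives were DESeq2 size factors and the Wald test of DESeq2 1.42.0, upper-quartile factors, no filter, each line alone, a replicate block and leaving out libraries. A few genes of the lists are counted but not reported here by name.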

Additional observations from a re-analysis of the deposited data

Results flagged for a closer look

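For the differences below, all PC3 libraries moved one way and all 22Rv1 libraries the other, and the difference between the lines was not tested. The genes were chosen for being higher in 22Rv1 with ETV4, so a gene that was lower in PC3 appears here through that choice. The share of all genes with such a split was not computed, and nothing is read from how many are listed. RIPOR2 was lower than eGFP in PC3 with ETV4WT (log2 difference -2.77 ± 0.19 SE) and with ETV4AAA (-2.38 ± 0.18), against 3.12 and 3.40 in 22Rv1. Between the constructs, ETV4AAA lay below ETV4WT in PC3 for PAEP (-2.03 ± 0.30), CORO2B (-1.55 ± 0.64, on 4 against 14 counts) and TESC (-1.5 ± 0.47). In 22Rv1 ETV4AAA lay above ETV4WT for the same 3 genes, by at least 1070-fold for PAEP, at least 232.2-fold for CORO2B and a log2 difference of 2.87 for TESC. RIPOR2 fell in PC3 by edgeR's test, as did PAEP between the constructs, while the adjusted p was 0.061 for TESC.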

How the results depend on the processing

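Of 971 log2 differences computed under an alternative, 856 kept their direction and their side of the threshold or stayed close to the value reported, 95 lost the threshold, 10 gained it, 8 untested ones in 22Rv1 moved by more than their replicate spread and 2 reversed. The number of the 9 genes called in PC3 between ETV4AAA and ETV4WT was 1 and became 2 with upper-quartile factors, without the filter, with the DESeq2 Wald test and with a replicate block, TESC being the gene added (adjusted p 0.0332, 0.00161, 0.0158 and 0.0193). Leaving out single libraries, that number ran from 1 to 2, relatives called in 22Rv1 with ETV4WT from 3 to 5 (6 reported), neighbours from 0 to 2 (1 reported), and neighbours called with ETV4AAA from 12 to 15 (19 reported). Leaving out single PC3 libraries, HAPLN1 with ETV4WT ran from -0.0224 (without ETV4WT replicate 2) to 0.268, and TESC with ETV4AAA from -1.55 (without ETV4AAA replicate 1) to 0.843. The cause was not tested. PAEP and RIPOR2 kept their calls against eGFP in PC3 under every alternative run, with adjusted p of at most 0.0256 and 0.00687.

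Over all genes, the number called ran from 119 to 904 for 22Rv1 ETV4WT (348 reported), 5259 to 7889 for 22Rv1 ETV4AAA (7395), 2553 to 6547 for PC3 ETV4WT (5434), 213 to 2253 for PC3 ETV4AAA (858) and 1341 to 2838 between the PC3 constructs (2550). Upper-quartile factors moved the median log2 difference by 0.116 in PC3 ETV4WT, and the share of calls that rose from 54.4% to 69.2%. Same-numbered libraries did not deviate together throughout (correlations of -0.321 to 0.816), so the numbers were not taken as pairs; with the replicate block the number of the 9 genes called was 3, 2 and 2 in the 3 PC3 comparisons. With 2 libraries per group and 1 count worth about 0.02 CPM, changes of genes at a few counts in PC3 were not detectable.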
